A study of Mus musculus with 8 samples.

Results

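The small leucine-rich proteoglycans (SLRPs) measured here were 10 genes, *Dcn*, *Bgn*, *Aspn*, *Fmod*, *Lum*, *Prelp*, *Kera*, *Omd*, *Ogn* and *Epyc*, which were found by gene symbol in the deposited table of counts. Each had 1 row in the table, and all 10 were among the 16736 genes, of 47706 listed, that passed a filter on low counts and were tested. RNA came from 8 samples of cultured mouse primary calvarial osteoblasts, which are bone-forming cells released by collagenase from the skullcaps of newborn pups. All were differentiated for 7 days and then serum-starved, after which 4 received parathyroid hormone (PTH) and 4 received its carrier (vehicle) for 24 hours. The labels call the differentiation adipogenic, whereas the methods of the study describe osteogenic medium. The methods name C57BL/6J mice and a C57BL/6 background for the transgenic lines, but which mice gave these cells was not given in the sources used here, and neither was the meaning of the prefix "Con" in the sample names. Nothing states that the 4 samples of a group came from separate animals or cultures, so the p-values measure the spread between these samples, which may be technical.

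SLRPs are secreted proteins built around a solenoid of leucine-rich repeats. Most carry chondroitin, dermatan or keratan sulfate chains, or sulfated tyrosines. They bind fibrillar collagens and set how fibrils assemble and how thick they grow, and several also bind TGF-β family growth factors or cell surface receptors. In bone, biglycan and decorin are abundant in the matrix that osteoblasts lay down before it mineralizes. By sequence, *Dcn*, *Bgn* and *Aspn* belong to class I, *Fmod*, *Lum*, *Prelp*, *Kera* and *Omd* to class II, and *Ogn* and *Epyc* to class III.

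Total counts ranged from 33605610 to 56090654 per PTH sample and from 41618108 to 46757836 per vehicle sample. *Tnfsf11*, which encodes RANKL and is a known target of PTH in osteoblasts, was at 1.42 ± 0.365 counts scaled to library size (CPM) in vehicle and 128 ± 20.0 CPM in PTH samples (SD, n = 4 each). The treatment labels and the level of this gene went the same way in all samples. Samples lay between 0.987 and 1.79 CPM in vehicle and between 115 and 157 CPM in PTH. Of 12 osteoblast markers, *Col1a1* was the most abundant at 44362 ± 2309 CPM in vehicle samples. Among 9 adipocyte markers, *Lep* had 0 to 10 counts and *Retn* 0 to 29 counts in a sample, *Adipoq* was between 2.71 and 4.67 CPM, and *Lpl*, which other cell types express too, was the highest at 395 ± 25.0 CPM in vehicle samples.

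The 10 genes lie at 4 places in the genome (GRCm38, GENCODE M21). On chromosome 13, *Aspn* (49544443 to 49567565), *Omd* (49582462 to 49592822) and *Ogn* (49608046 to 49624501) follow each other on the plus strand within 80.1 kb. On chromosome 10, *Dcn* (97479609 to 97518143), *Lum* (97565128 to 97572703), *Kera* (97606879 to 97613692) and *Epyc* (97644068 to 97682454) lie within 203 kb. *Prelp* (133910304 to 133921414, minus strand) and *Fmod* (134037254 to 134048277) are neighbours on chromosome 1, and *Bgn* (73483602 to 73495933) is alone on the X chromosome. *Aspn*, *Omd* and *Ogn* all lie inside *Cenpp*, a centromere protein gene on the opposite strand, and strand use in the counting was not given in the sources used here. *Cenpp* had 89 to 165 counts in a sample, against 2167 to 5499 for *Omd*, the lowest of the 3 genes, and its log2 fold change was -0.02 (edgeR adjusted p = 0.955). *Prelp* and *Epyc* also overlap noncoding genes on the opposite strand, *Gm15851* and *Gm10754*.

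The chromosome 13 genes are shown by the 250 bases upstream of their RefSeq start (GRCm38.p6, plus strand, 5′ to 3′). They were chosen because 2 of the 3 SLRP genes that passed the test as lower lie here, next to *Aspn*, which did not pass. This does not show that *Aspn* differed from *Ogn*. In a two-sided exact permutation test on the samples, both had p = 0.0571. Each window precedes the transcribed part of its gene. Capitals mark the letters ACCACA, as in the core of RUNX binding sites, and TATAAA, as in the TATA box, wherever they stand in the window.
Ogn, chr13:49607765-49608014: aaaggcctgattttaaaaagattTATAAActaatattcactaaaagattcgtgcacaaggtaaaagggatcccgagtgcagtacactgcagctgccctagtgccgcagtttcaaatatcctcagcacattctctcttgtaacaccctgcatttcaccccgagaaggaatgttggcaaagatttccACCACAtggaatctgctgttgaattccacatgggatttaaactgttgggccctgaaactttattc
Omd, chr13:49582212-49582461: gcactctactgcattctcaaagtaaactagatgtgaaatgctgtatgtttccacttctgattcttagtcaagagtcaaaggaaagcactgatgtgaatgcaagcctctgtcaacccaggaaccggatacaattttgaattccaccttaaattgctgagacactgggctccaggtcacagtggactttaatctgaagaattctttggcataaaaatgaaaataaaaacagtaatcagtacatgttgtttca
Aspn, chr13:49544193-49544442: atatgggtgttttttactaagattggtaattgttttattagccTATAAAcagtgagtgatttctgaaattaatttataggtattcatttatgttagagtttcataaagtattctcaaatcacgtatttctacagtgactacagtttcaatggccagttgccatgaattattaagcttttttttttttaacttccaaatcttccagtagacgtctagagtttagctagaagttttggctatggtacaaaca

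In the *Ogn* window, the first letter of ACCACA lies 65 bases before the start and that of TATAAA 227 bases before it. In the *Aspn* window, TATAAA begins 207 bases before the start, and the *Omd* window holds neither. RefSeq windows were found for 8 of the 10 genes, and *Dcn* and *Lum* had no entry. Over both strands, ACCACA or TGTGGT was in 1 of the 8 windows and in 14% of all 32817 windows of this length. TATAAA, read on the strand of the gene, was in 2 of 8 and in 7.6% of all. TGACG or CGTCA, part of the cAMP response element, was in 0 of 8 and in 17.7% of all. TGANTCA, the AP-1 motif, was in 0 of 8 and in 6.75% of all. These are matches of letters only, and the TATAAA matches, at 227 and 207 bases before the start, were not taken as working TATA boxes.

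Levels were compared between genes as TPM, which are counts per kb of transcript scaled to the same total in each sample, with the median length of the GENCODE transcripts of each gene. In vehicle samples, *Bgn* was the most abundant SLRP at 3015 ± 175 TPM (SD, n = 4), which placed it 13th of the genes tested. *Fmod*, whose product fibromodulin binds collagen fibrils and TGF-β, followed at 1592 ± 184. *Dcn* at 1062 ± 69.0 and *Lum* at 1058 ± 67.1 could not be told apart by their spread, and neither could *Aspn* at 690 ± 35.6 and *Ogn* at 649 ± 49.7. *Prelp* stood at 477 ± 26.4. *Epyc*, which encodes epiphycan and is known from growth plate cartilage, was far lower at 64.1 ± 3.97 and overlapped with *Omd* at 61.0 ± 4.56. *Kera*, which encodes keratocan of the cornea, was at 1.32 ± 0.307 and had only 48 to 165 counts in a sample. All other neighbours in this order were separated in all 4 vehicle samples. The order depends on the transcript length taken. With the longest transcript in place of the median, *Dcn* was sixth at 954 TPM, below *Lum* at 2537, *Aspn* at 1647 and *Ogn* at 1557.

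**Figure D1:**
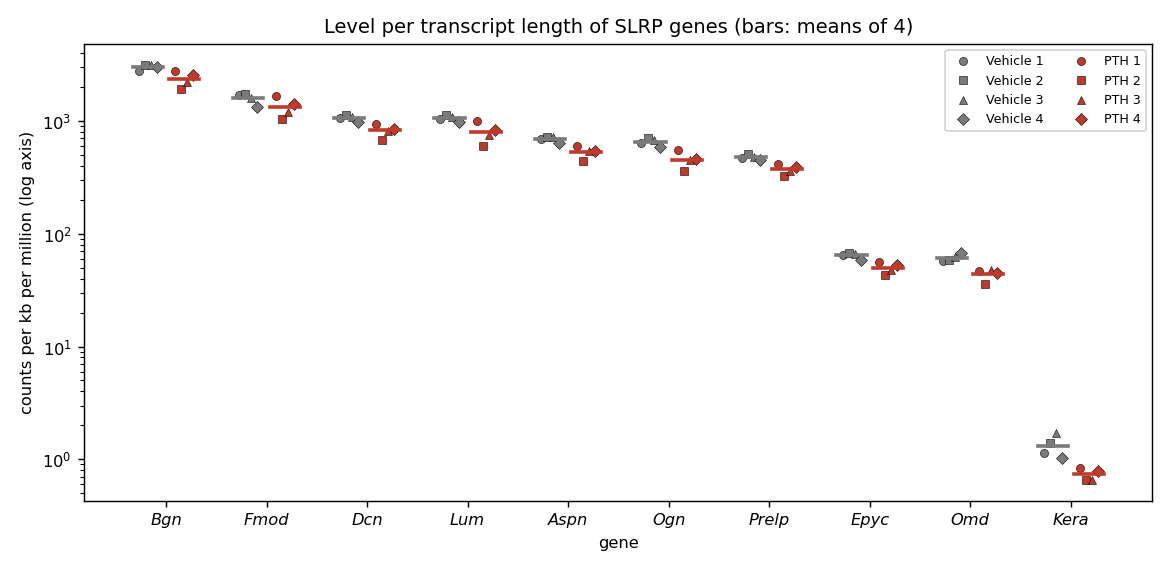
TPM, or scaled counts per kb of transcript (log axis), of the 10 SLRP genes in each of 4 vehicle (gray) and 4 PTH (red) samples, with bars for group means and 1 symbol shape per replicate number. The levels run from *Bgn*, at a vehicle mean of 3015, to *Kera*, at 1.32, and *Dcn* and *Lum*, *Aspn* and *Ogn*, and *Epyc* and *Omd* are pairs whose vehicle samples overlap. This scale carries no TMM factors, and the groups lie further apart on it than in CPM.

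The question asked of these genes was whether their transcripts changed with PTH. *Ogn*, *Omd* and *Kera* passed the test as lower, with estimated falls of 21.1%, 19.4% and 36.8%, and the other 7 did not pass. None rose, also at an unadjusted p under 0.05 (0 of 10) and with DESeq2 (0 of 10). Which genes passed turned on single samples. In 8 fits that each left out 1 sample, *Omd* passed in 6, *Kera* in 3 and *Ogn* in 2, and *Kera* had only 48 to 165 counts in a sample. By edgeR's quasi-likelihood test, adjusted over all genes by the Benjamini-Hochberg method, 22.5% of all genes tested were lower with PTH, 23.3% were higher and 45.8% differed in either direction at an adjusted p under 0.05. The 3 of 10 SLRP genes that were lower are thus to be read against a share of more than 1 gene in 5. All 10 estimates were below 0, as were 50.1% of all genes tested. The median log2 fold change (PTH minus vehicle) was -0.19 over the 10 genes and -0.00081 over all genes tested. By class, 0 of 3 class I genes, 2 of 5 class II genes and 1 of 2 class III genes were lower. In bulk cultures such as these, fewer cells of a type and less RNA per cell cannot be told apart.

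**Figure D2:**
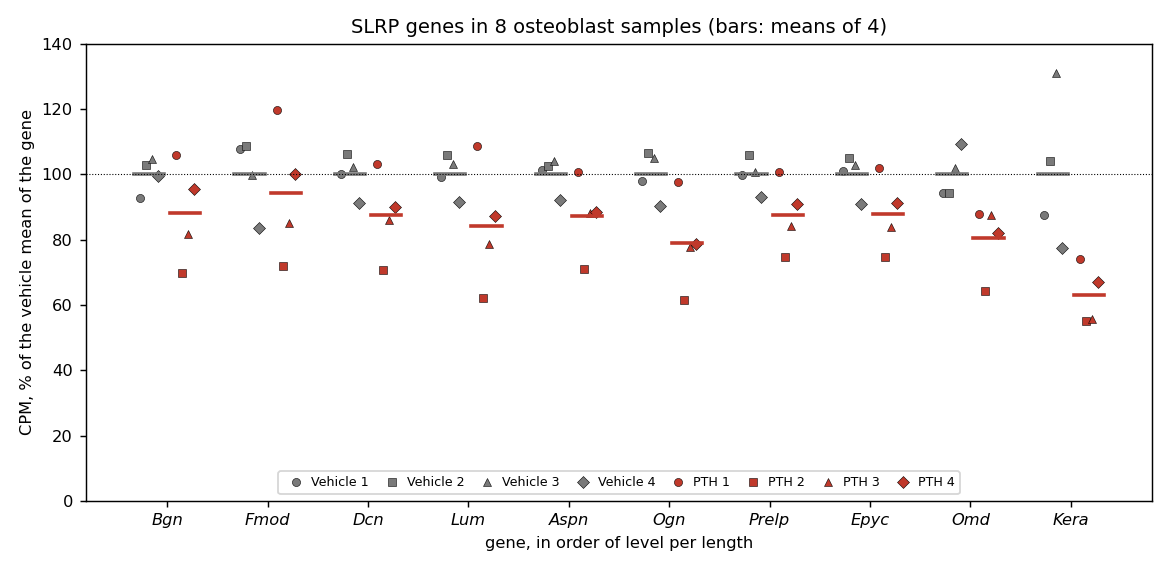
CPM of each SLRP gene as a percentage of its vehicle mean in 4 vehicle (gray) and 4 PTH (red) samples, with bars for group means. The PTH samples lie below all vehicle samples for *Omd* and *Kera*, and PTH replicate 1 (circles) is the highest of the PTH samples for all 10 genes.

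*Ogn* encodes osteoglycin (mimecan), a keratan sulfate proteoglycan found in bone matrix. PTH replicates 1 to 4 had 1419.9, 895, 1132 and 1142 CPM of *Ogn*, and vehicle replicates 1 to 4 had 1425, 1552, 1527 and 1312 CPM. Of the PTH samples, 3 were below the lowest vehicle sample, and replicate 1 was within the vehicle range. The log2 fold change was -0.34 ± 0.123 (SE; 95% interval -0.61 to -0.07; edgeR adjusted p = 0.0384), and a two-sided exact permutation test on the 8 samples gave p = 0.0571.

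*Omd* encodes osteomodulin (osteoadherin), a keratan sulfate proteoglycan that binds hydroxyapatite and is made mainly by osteoblasts and odontoblasts. It was at 89.0, 65.2, 88.9 and 83.3 CPM in the PTH samples and at 95.7, 95.5, 103 and 111 CPM in the vehicle samples. The groups did not overlap. The log2 fold change was -0.31 ± 0.0973 (SE; 95% interval -0.52 to -0.10; edgeR adjusted p = 0.0200). The exact permutation p was 0.0286, the smallest that the 70 assignments of 4 and 4 samples can give.

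*Kera* was at 1.95, 1.44, 1.46 and 1.76 CPM in the PTH samples and at 2.30, 2.73, 3.44 and 2.04 CPM in the vehicle samples, again without overlap. Its log2 fold change was the largest of the family in size and the least precise, at -0.66 ± 0.228 (SE; 95% interval -1.16 to -0.16; edgeR adjusted p = 0.0322; exact permutation p = 0.0286). *Omd* and *Kera* were the 2 SLRP genes of 10 with every PTH sample below every vehicle sample, which held for 21.8% of all genes tested.

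Of class I, *Bgn* encodes biglycan, whose loss lowers bone mass in mice. It was at 4244, 2805, 3281 and 3831 CPM in the PTH samples and at 3716, 4128, 4196 and 3996 CPM in the vehicle samples. PTH replicate 1 was the highest of all 8 samples and replicates 2 and 3 were the lowest. The log2 fold change was -0.18 ± 0.121 (SE; 95% interval -0.44 to 0.08; edgeR adjusted p = 0.251). *Dcn* encodes decorin, which binds collagen fibrils and TGF-β. It was at 1683, 1154, 1401 and 1468 CPM with PTH and at 1631, 1731, 1668 and 1485 CPM with vehicle. Here 3 PTH samples were below the vehicle range and replicate 1 was inside it. The log2 fold change of *Dcn* was -0.19 ± 0.109 (SE; 95% interval -0.43 to 0.05; edgeR adjusted p = 0.174). *Aspn* encodes asporin, which binds collagen and TGF-β and carries no glycosaminoglycan chain. It was at 1406, 994, 1231 and 1237 CPM with PTH and at 1414, 1433, 1452 and 1287 CPM with vehicle, with the same 3 PTH samples below the vehicle range. Its log2 fold change was -0.20 ± 0.102 (SE; 95% interval -0.42 to 0.02; edgeR adjusted p = 0.133). The exact permutation p of *Aspn* was 0.0571, the same as that of *Ogn*.

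Of the other class II genes, *Lum* and *Fmod* encode lumican and fibromodulin, which compete for a binding site on type I collagen. *Lum* was at 2462, 1408.5, 1779.5 and 1975 CPM with PTH and at 2245, 2395, 2332 and 2071 CPM with vehicle. PTH replicate 1 was above all vehicle samples and the other 3 PTH samples were below them. The log2 fold change of *Lum* was -0.25 ± 0.141 (SE; 95% interval -0.55 to 0.06; edgeR adjusted p = 0.177). *Fmod* was at 3039, 1828, 2159.9 and 2541 CPM with PTH and at 2739.5, 2758, 2537 and 2118 CPM with vehicle. Only PTH replicate 2 was below the vehicle range of *Fmod*, and its estimate was the nearest to 0 of the family at -0.09 ± 0.146 (SE; 95% interval -0.40 to 0.23; edgeR adjusted p = 0.665). *Prelp* encodes a protein that links basement membrane perlecan to collagen. It was at 932, 690.1, 777 and 839.7 CPM with PTH and at 923, 981, 933 and 862 CPM with vehicle, so that all PTH samples but replicate 1 were below the vehicle range. Its log2 fold change was -0.19 ± 0.0938 (SE; 95% interval -0.40 to 0.01; edgeR adjusted p = 0.118). *Epyc*, of class III, was at 122, 88.9, 100.2 and 109 CPM with PTH and at 120.4, 125, 123 and 109 CPM with vehicle, and 2 PTH samples were below the vehicle range. Its log2 fold change was -0.18 ± 0.0914 (SE; 95% interval -0.38 to 0.02; edgeR adjusted p = 0.123). For these 7 genes, the intervals took in both no change and a fall of about the size seen in *Ogn* and *Omd*.

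**Figure D3:**
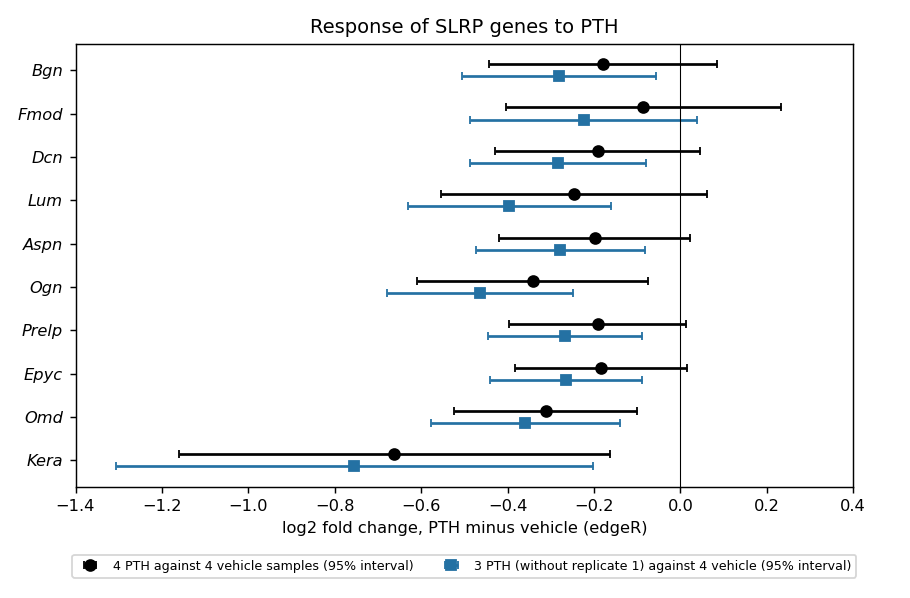
Log2 fold change (PTH minus vehicle) of each SLRP gene with its 95% interval, from all 8 samples (black) and from 3 PTH samples without replicate 1 and 4 vehicle samples (blue). The black intervals of *Ogn*, *Omd* and *Kera* lie below 0, and without PTH replicate 1 only the interval of *Fmod* takes in 0. Replicate 1 was the highest PTH sample in all 10 genes. The fit without replicate 2, the lowest in all 10, is not plotted.

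The samples of the PTH group were in nearly the same order in every SLRP gene. Replicate 1 was the highest PTH sample in 10 of 10 genes and replicate 2 the lowest in 10 of 10. Over all genes tested, replicate 1 was the highest PTH sample in 29.9% and replicate 2 the lowest in 29.7%. The order was partly shared with 14 collagen genes, in which replicate 1 was the highest in 10 and replicate 2 the lowest in 11. Replicate 1 was also the deepest library, with 56090654 counts, and replicate 2 the shallowest, with 33605610. The summed CPM of 12 osteoblast markers ran from 73323.5 in replicate 2 to 106087 in replicate 1, and from 76762 to 87845 in the vehicle samples. Most of this sum was *Col1a1* and *Col1a2*, at means of 48173 and 35269 CPM with PTH, which are also among the 14 collagen genes. The summed CPM of 12 macrophage markers ran the other way, from 1743 in replicate 1 to 2235 in replicate 2, and was 1117 to 1822 in the vehicle samples. Most of the macrophage sum was *Lyz2*, at 1417 ± 203 CPM with PTH. In the vehicle samples, the summed CPM of the SLRP genes was highest in replicate 2, at 15201, and lowest in replicate 4, at 13352. There replicate 2 was the shallowest library and replicate 4 the deepest, and the osteoblast sum was also lowest in replicate 2 and highest in replicate 4. Both orders were the reverse of those in the PTH group. The macrophage sum was again lowest where the SLRP sum was highest. The part of depth, of osteoblast RNA or of macrophage RNA in the SLRP values was not tested.

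The number of SLRP genes that passed the test turned on single samples. Without PTH replicate 1, 9 of 10 were lower, all but *Fmod*, where 23.1% of all genes tested were lower. The median log2 fold change of the 10 genes was then -0.28. Replicate 1 was the highest PTH sample in all 10 genes, so leaving it out lowered every estimate. *Lum* was at -0.40 (edgeR adjusted p = 0.00965), *Ogn* at -0.46 (adjusted p = 0.00215) and *Dcn* and *Bgn* both at -0.28 (adjusted p = 0.0256 and 0.0414). In the other direction, leaving out PTH replicate 2, the lowest PTH sample in all 10 genes, brought the median to -0.11. *Lum* was then at -0.11 and *Bgn* at -0.072. Leaving out vehicle replicate 3 left 0 of 10 by edgeR (2 at an unadjusted p under 0.05). Omitting PTH replicate 2, 3 or 4 or vehicle replicate 2 left *Omd* alone, omitting vehicle replicate 1 left *Omd* and *Kera*, and omitting vehicle replicate 4 left *Ogn* and *Kera*. *Omd* thus passed in 6 of these 8 fits, *Kera* in 3 and *Ogn* in 2. The estimate stayed below 0 in all 8 fits for 9 of the genes. That of *Fmod* was 0.035 without PTH replicate 2.

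**Figure D4:**
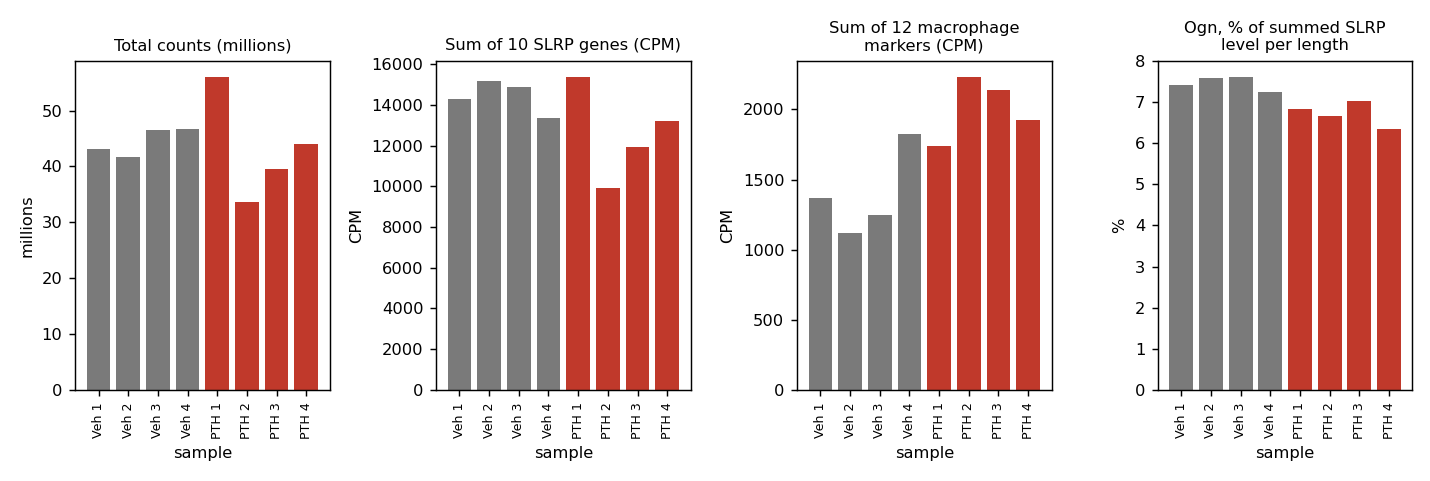
Total counts (first panel), summed CPM of the 10 SLRP genes, summed CPM of 12 macrophage markers, and *Ogn* as a percentage of the summed SLRP level per length, in each of 4 vehicle (gray) and 4 PTH (red) samples, on axes that start at 0. PTH replicate 1 has the largest SLRP sum, at 15399 CPM, and PTH replicate 2 the smallest, at 9929.8 CPM. The *Ogn* percentage is lower in all PTH samples than in any vehicle sample. Of the 10 genes, only *Ogn* and *Kera* had shares that lay apart, and such shares were not worked out for other groups of genes.

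The scaling of the libraries moved the values of the whole family. TMM factors were 0.914 to 0.990 in the PTH samples and 1.03 to 1.06 in the vehicle samples. On raw library totals, an alternative chosen after the data were seen, the median log2 fold change of all genes tested was -0.13 and that of the SLRP genes -0.33, a difference of -0.20. On that scale 9 SLRP genes were lower, all but *Fmod*, as were 32.0% of all genes tested. The 10 genes together held 1.41, 0.982, 1.16 and 1.27% of all counts in the PTH samples and 1.49, 1.59, 1.53 and 1.42% in the vehicle samples, without overlap. The median of all genes tested was also below 0 on raw totals, and how many of them did not overlap there was not counted. The summed CPM of the 10 genes, which carries the TMM factors, did overlap, at 9929.8 to 15399 in PTH and 13352 to 15201 in vehicle samples.

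Within the family, proportions do not depend on the scaling of a library, and they were compared as a description with no test. *Ogn* made up 6.36 to 7.03% of the summed level per length of the 10 genes in PTH samples and 7.26 to 7.63% in vehicle samples. These ranges were apart, including PTH replicate 1 at 6.83%. *Kera* made up 0.0102 to 0.0121% in PTH and 0.0127 to 0.0194% in vehicle samples, again apart. The shares of *Dcn*, *Bgn*, *Fmod*, *Lum*, *Aspn*, *Prelp*, *Epyc* and *Omd* overlapped. Such shares were not worked out for other groups of genes, so how often they lie apart is not known here. The ratio of *Aspn* to its chromosome 13 neighbour *Ogn* was 1.10 to 1.23 in PTH and 1.02 to 1.10 in vehicle samples, where PTH replicate 1 fell inside the vehicle range. The ratio of *Lum* to *Fmod* was 0.575 to 0.615 in PTH and 0.611 to 0.729 in vehicle samples, which overlapped in 1 PTH sample. The ratio of *Dcn* to *Bgn* was 0.332 to 0.370 in the PTH samples, wholly within the 0.322 to 0.380 of the vehicle samples.

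Of 50 other protein-coding genes tested within 500 kb of an SLRP gene, 15 were higher (30%, against 23.3% of all genes tested) and 6 were lower with PTH (12%, against 22.5%). These neighbours include *Optc* and *Ecm2*, which are among the further small leucine-rich genes described below. They also include genes that overlap each other, such as *Zc3h11a*, *Gm38394* and *Zbed6*, which were counted separately. Around *Prelp* and *Fmod*, 9 of 17 were higher and 1 was lower. Around *Aspn*, *Omd* and *Ogn*, 4 of 12 were higher and 3 lower, around *Bgn* 2 of 21 were higher and 2 lower, and around the chromosome 10 genes no other gene was tested. The largest rise was in *Sox13*, an SRY-box factor gene near *Prelp*, from 3.16 ± 0.243 to 23.0 ± 1.47 CPM (log2 fold change 2.86, edgeR adjusted p = 4.31e-10). The largest fall was in *Fgd3*, near *Aspn*, from 12.9 ± 1.60 to 5.65 ± 1.20 CPM (-1.20 on the log2 scale, adjusted p = 5.47e-05).

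Of 8 further genes for small leucine-rich matrix proteins, *Chad* and *Tsku* rose and none fell (1 at an unadjusted p under 0.05, 0 with DESeq2). Of all genes tested, 23.3% rose and 22.5% fell. The call of *Tsku* was lost in 4 of 8 fits that left out 1 sample (PTH replicate 4 or vehicle replicate 2, 3 or 4), with no filter and on raw library totals. *Ecm2* was lower without PTH replicate 1 and on raw library totals. *Podnl1* was lower without PTH replicate 4, in a fit with a block for replicate number and on raw library totals. *Chad* encodes chondroadherin, a collagen- and integrin-binding cartilage protein, and went from 0.516 ± 0.209 to 1.69 ± 0.491 CPM on 16 to 112 counts (log2 fold change 1.71, edgeR adjusted p = 0.00220). *Tsku*, which encodes the secreted signaling modulator tsukushi, went from 41.2 ± 1.51 to 49.4 ± 5.51 CPM (0.26 on the log2 scale, adjusted p = 0.0201). The other 6 did not pass the test. Their log2 fold changes were -0.28 for *Ecm2* (adjusted p = 0.0876), -0.32 for *Podnl1* (0.0985), -0.63 for *Nyx* (0.156), 0.12 for *Podn* (0.215), -0.06 for *Chadl* (0.780) and -0.09 for *Optc* (0.819).

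SLRP core proteins receive their chains and sulfate in the Golgi. The counts for this and the following lists are to be read against the 23.3% of all genes tested that rose and the 22.5% that fell. Of 22 genes for chondroitin and dermatan sulfate synthesis, 11 fell and 4 rose (median log2 fold change -0.22). *Chst3*, a chondroitin 6-O-sulfotransferase, fell from 5.39 ± 0.693 to 1.47 ± 0.567 CPM (log2 fold change -1.88, edgeR adjusted p = 0.000109), and *Chst15*, which adds a further sulfate to chondroitin, fell from 29.9 ± 0.828 to 13.3 ± 2.42 CPM (-1.17, adjusted p = 6.26e-06). *Xylt1*, which starts the chains by adding xylose to the core protein, rose from 21.5 ± 1.02 to 50.9 ± 7.56 CPM (1.25, adjusted p = 7.56e-07), and *Chsy1*, a chain polymerase, rose from 133 ± 5.24 to 244 ± 46.5 CPM (0.87, adjusted p = 6.89e-05). Of 10 genes tested for keratan sulfate synthesis, 3 rose and 2 fell (median -0.15). *B4galt1*, a galactosyltransferase, rose from 199 ± 7.92 to 327 ± 41.6 CPM (0.72, adjusted p = 3.79e-05). *B3gnt2*, which extends the chains with N-acetylglucosamine, was at 21.7 ± 4.48 and 81.7 ± 8.0 CPM (1.91, adjusted p = 3.39e-07), in an assembled locus shared with *Commd1*, *Gm12057* and *Gm28048*, so its value is uncertain. *Chst1*, a keratan sulfate sulfotransferase, fell from 7.93 ± 1.06 to 3.72 ± 0.748 CPM (-1.09, adjusted p = 0.000221), and *B4galt4*, another galactosyltransferase, fell from 18.8 ± 1.63 to 13.1 ± 2.02 CPM (-0.51, adjusted p = 0.00318).

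Of 8 genes that supply sulfate or sulfate tyrosine, 4 rose and 2 fell (median 0.12). The sulfate carrier *Slc26a2* rose from 52.0 ± 2.55 to 72.7 ± 8.40 CPM (log2 fold change 0.48, edgeR adjusted p = 0.000522), and *Slc35b3*, which moves the sulfate donor PAPS into the Golgi, rose from 11.3 ± 1.38 to 17.1 ± 2.14 CPM (0.60, adjusted p = 0.00120). The PAPS synthases *Papss1* and *Papss2* fell, from 79.7 ± 6.03 to 62.3 ± 6.99 CPM (-0.35, adjusted p = 0.00583) and from 47.4 ± 3.99 to 37.4 ± 6.47 CPM (-0.34, adjusted p = 0.0261). The call of *Papss2* was lost in 5 of 8 fits that left out 1 sample (PTH replicate 2 or 3 or vehicle replicate 2, 3 or 4).

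Of the genes in these lists, the largest rises were in proteases that process or cleave SLRPs, of which 3 of 14 tested rose and 2 fell (median 0.07). *Adamts4*, an aggrecanase, rose from 43.9 ± 2.02 to 577 ± 79.2 CPM (log2 fold change 3.72, edgeR adjusted p = 6.20e-11). *Adamts1*, of the same metalloprotease family, rose from 151 ± 4.94 to 929 ± 54.1 CPM (2.62, adjusted p = 6.20e-11). *Adamts5*, the other main aggrecanase, fell from 292 ± 3.96 to 155 ± 8.28 CPM (-0.91, adjusted p = 1.87e-07). *Mmp8*, a collagenase, passed the test as lower with 0 to 27 counts in a sample (adjusted p = 0.0445), but its call was lost with no filter and in 7 of 8 fits that left out 1 sample, all but that without PTH replicate 4, and with halved counts it was not tested.

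**Figure D5:**
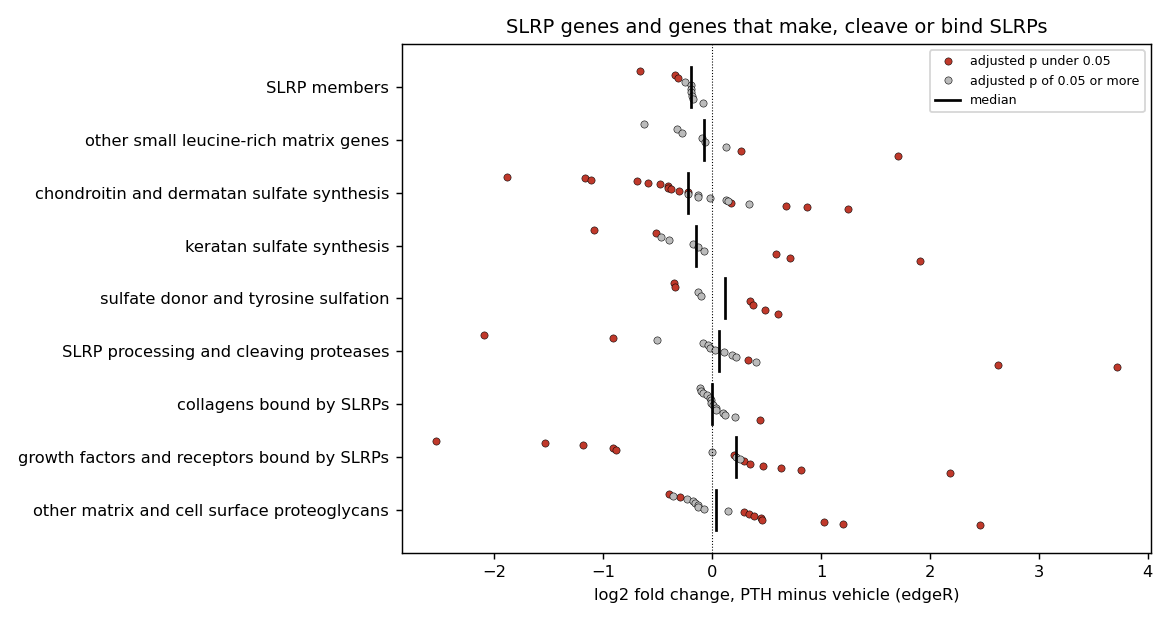
Log2 fold change (PTH minus vehicle) of each tested gene in the SLRP family and in 8 lists of genes that make, sulfate, cleave or bind SLRPs or encode related proteins, in red where the edgeR adjusted p was under 0.05, with a line for each median. The SLRP genes run from -0.66 (*Kera*) to -0.09 (*Fmod*) around a median of -0.19, and 3 of 10 passed the test. In the other lists, *Adamts4* reaches 3.72 and *Bmp4* -2.54.

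Of 14 collagens that SLRPs bind, only *Col2a1*, the collagen of cartilage, passed the test, from 226 ± 3.49 to 307 ± 40.1 CPM (log2 fold change 0.44, edgeR adjusted p = 0.00140), and the median log2 fold change was -5.6e-05. Of 15 growth factors and receptors tested that SLRPs bind, 7 rose and 5 fell (median 0.22). *Met*, the hepatocyte growth factor receptor, which binds decorin, rose from 6.10 ± 1.05 to 27.6 ± 2.22 CPM (2.18, adjusted p = 3.73e-08), and *Tgfbr1* rose from 37.5 ± 1.75 to 65.9 ± 2.97 CPM (0.81, adjusted p = 7.46e-07). *Egfr*, another decorin-binding receptor, fell from 179 ± 11.3 to 61.5 ± 4.20 CPM (-1.54, adjusted p = 7.64e-09), and *Bmp4*, a bone morphogenetic protein, fell from 100.6 ± 4.43 to 17.3 ± 2.31 CPM (-2.54, adjusted p = 8.26e-10). Of 18 other matrix and cell surface proteoglycans tested, 8 rose and 2 fell (median 0.04). The syndecan *Sdc4* rose from 92.6 ± 11.8 to 508 ± 67.2 CPM (2.46, adjusted p = 7.28e-09) and serglycin, *Srgn*, from 8.98 ± 0.168 to 20.6 ± 1.20 CPM (1.20, adjusted p = 1.76e-07). *Sdc2* fell from 434 ± 32.4 to 329 ± 46.9 CPM (-0.40, adjusted p = 0.00717) and *Gpc4*, a glypican, from 194 ± 7.26 to 158 ± 23.5 CPM (-0.29, adjusted p = 0.0262), a call that was lost in 5 of 8 fits without 1 sample (PTH replicate 2 or 3 or vehicle replicate 2, 3 or 4).

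Several cell types other than osteoblasts make SLRPs, so their markers were read beside these values. Of 12 osteoblast markers, the transcription factors *Sp7* (log2 fold change -1.78, edgeR adjusted p = 4.45e-06) and *Runx2* (-0.33, adjusted p = 0.00362) and the osteocyte gene *Dmp1* (-1.12, adjusted p = 0.000806) fell, and none rose by edgeR (0 at an unadjusted p under 0.05). Of 8 tendon and connective tissue fibroblast markers, *Pi16* (2.96, adjusted p = 4.09e-06), *Dpt* (0.75, adjusted p = 0.000228) and *Ly6a* (0.18, adjusted p = 0.0304) rose and the tendon transcription factors *Scx* (-0.72, adjusted p = 0.000246) and *Mkx* (-0.34, adjusted p = 0.00353) fell. The call of *Ly6a* was lost in 6 of 8 fits without 1 sample, all but those without PTH replicate 1 or 3. Their summed level was 1041 to 1134 CPM in PTH and 972 to 1123 CPM in vehicle samples, of which *Tnmd*, the highest, made up 667 ± 62.7 and 698 ± 50.6 CPM. Of 8 chondrocyte markers tested, *Acan* and *Col2a1* rose, the sum was 928 to 1194 CPM in PTH and 872 to 1123 CPM in vehicle samples, and *Matn1* had 0 to 9 counts. Of 8 adipocyte markers tested, *Pparg* fell (-1.5 on the log2 scale, adjusted p = 3.66e-07). The sum, most of it *Lpl*, was 437 to 498 CPM in PTH and 420.2 to 487 CPM in vehicle samples. Of 12 macrophage markers, *Lyz2*, the highest at 914 ± 187 CPM in vehicle samples, *Tyrobp* and *Cd14* rose, and all 12 estimates were above 0. The call of *Cd14* was lost in 5 of 8 fits without 1 sample (PTH replicate 1 or 4 or vehicle replicate 1, 2 or 3). The part of these cells in the SLRP values was not tested.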

How the data were processed

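RNA was sequenced from 8 samples (4 PTH, 4 vehicle). Per the study's methods, poly(A)-enriched libraries were aligned to GRCm38 with HISAT2 and assembled with StringTie2, and the authors deposited whole-number gene counts, not scaled between samples, that StringTie2's companion script estimated from transcript coverage. The read length and strand given to these tools were not given in the sources used here. Columns were matched to samples by title. No column of another sample was present. The 2 rows without a symbol (0.00281% of counts) stayed in the library totals and the filter, and were left out only when genes were looked up by symbol.

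Genes were filtered with edgeR 4.0.16 filterByExpr (minimum count 10, minimum total 15), scaled by TMM and compared by the two-sided quasi-likelihood test in R 4.3.3, with Benjamini-Hochberg adjustment over all 16736 genes and a threshold of 0.05 with no minimum fold. The step was tested on simulated data. Each SLRP gene was also put to a two-sided exact permutation test in Python 3.11.15 with NumPy 2.4.6, with 0.1 added to CPM before the log2. SciPy 1.17.1 gave the t quantiles of the 95% intervals. CPM used TMM library sizes. Positions and transcript lengths came from GENCODE M21 (46590 rows matched) and upstream sequences from RefSeq (GRCm38.p6). The depth of 33605610 to 56090654 counts gave 48 to 165 counts of *Kera* and at least 2167 of every other SLRP gene in a sample.

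The 10 genes and all lists were chosen with earlier results of these data known. Named genes were all SLRP genes and further small leucine-rich genes tested, the 2 largest rises and falls that passed the test in each other list, the largest rise and fall within 500 kb, *Tnfsf11*, and the lowest and highest markers. The markers that passed the test, *Cenpp*, which overlaps 3 of the genes, and *Adipoq* were named after their values were seen. Alternatives were DESeq2 1.42.0, its size factors in edgeR, no filter, a replicate block, leaving out each sample, halved counts, counts summed by symbol, library sizes without the 10 most abundant genes, a minimum log2 fold change of 1, longest transcripts, a 1000 kb window and, added after the data were seen, raw library totals.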

Additional observations from a re-analysis of the deposited data

Results flagged for a closer look

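Among 94 groups of 4 samples checked for a sample far from the other 3, 3 had one, where chance gives about 1 in 20. *Tnfsf11* was at 157 CPM in PTH replicate 1, above the other PTH samples. *Chsy1* was at 126 CPM in vehicle replicate 1, below the other vehicle samples, and *B4galt4* was at 21.2 CPM in the same sample, above the others. No SLRP gene had such a sample.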

How the results depend on the processing

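The number of SLRP genes lower with PTH, 3 in the analysis reported, was 3 with DESeq2, no filter, halved counts, counts summed by symbol or library sizes without the 10 most abundant genes. It was 2 with DESeq2 size factors, 1 (*Omd*) with the replicate block, 9 on raw library totals, 0 with a minimum log2 fold change of 1, and 0 to 9 when each sample was left out. No SLRP gene was higher in any of them. With DESeq2 size factors *Ogn* was at -0.33 (adjusted p = 0.0539). With the replicate block, *Ogn* was at -0.36 (adjusted p = 0.0599) and *Kera* at -0.64 (adjusted p = 0.0761). Samples with the same number did not deviate together (r between -0.0409 and 0.0274), so the numbers were not taken as pairs. On raw library totals the log2 fold changes that newly passed were -0.32 for *Dcn*, -0.31 for *Bgn*, -0.38 for *Lum*, -0.33 for *Aspn*, -0.32 for *Prelp* and -0.31 for *Epyc*, and 38 genes of the pathway lists were lower in place of 24. With each sample left out in turn, log2 fold changes ran from -0.28 to -0.092 for *Dcn*, -0.28 to -0.072 for *Bgn*, -0.22 to 0.035 for *Fmod*, -0.40 to -0.11 for *Lum*, -0.46 to -0.23 for *Ogn*, -0.36 to -0.21 for *Omd*, -0.28 to -0.10 for *Aspn*, -0.27 to -0.11 for *Prelp*, -0.26 to -0.10 for *Epyc* and -0.77 to -0.51 for *Kera*. *Fmod* was at 0.035 (adjusted p = 0.846) without PTH replicate 2. Within 1000 kb, 23 of 87 neighbouring genes were higher and 12 lower. With the longest transcript, TPM levels were 4133 (*Bgn*), 2233 (*Fmod*), 954 (*Dcn*), 2537 (*Lum*), 1647 (*Aspn*), 1557 (*Ogn*), 703 (*Prelp*), 129 (*Epyc*), 124 (*Omd*) and 3.17 (*Kera*). Why these values moved was not tested. Counts of genes in single lists moved by over 1.5 times in 32 cases, those of the further small leucine-rich genes and of the sulfate and protease lists among them, and stayed within that in 224.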
